A study of Homo sapiens with 27 samples.

Results

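The proteasome genes were followed across 3 human acute myeloid leukaemia (AML) cell lines in which CARM1, also called PRMT4, was knocked down. CARM1 is an enzyme that methylates arginines on histones and other proteins. A gene belonged to the set if its symbol was PSM followed by a letter from A to G and a number, the naming scheme of the proteasome subunits, their activators and their assembly chaperones. The rule found 48 of the 57992 genes in the table. They were grouped by symbol, and not by presence in the mature complex. The 20S core had 8 alpha and 8 beta genes, with the tissue-restricted PSMA8 and PSMB11 among them. The 19S cap had 6 ATPases and 14 non-ATPases, and the latter include PSMD10, a chaperone of the cap's base. There were 3 other activators or inhibitors and 4 chaperones of core assembly. The 5 interferon-inducible genes of the immunoproteasome (PSMB8, PSMB9, PSMB10, PSME1 and PSME2) are shown apart from the other 43.

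RNA was sequenced from MOLM-13, MV411 and SKNO1 cells at day 3 after lentiviral, constitutive expression of a short hairpin RNA (shRNA). Each line had 3 groups of 3 libraries: cells with CARM1 hairpin 1, cells with CARM1 hairpin 2, and cells with a scramble hairpin, for 27 libraries in all. MOLM-13 and MV411 cells had no media supplement, and all 3 groups of SKNO1 cells had GM-CSF at 10 ng/mL. Each is 1 established cell line, the control carries a virus and a hairpin too, and no uninfected cells were analysed here. The labels do not say whether replicates were separate infections or cultures, so p-values measure the spread between these libraries, which may be technical.

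The proteasome degrades proteins tagged with ubiquitin. Its 20S core is a barrel of alpha rings around beta rings that hold the proteolytic sites, and the 19S cap binds, unfolds and de-ubiquitinates substrates. In cells exposed to interferon-gamma, and constitutively in many blood cells, the catalytic beta subunits PSMB5, PSMB6 and PSMB7 are replaced by PSMB8, PSMB9 and PSMB10, and the core can carry a PSME1-PSME2 cap, which alters the peptides made for display on MHC class I. When proteasome activity is low, the transcription factor NFE2L1 is known to raise most of the standard subunits together through antioxidant response elements in their promoters.

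The start-site regions of the inducible members are shown because interferon-responsive factors are known to bind ISRE and GAS sequences, which are defined here as runs of letters. A window of 250 bases before to 50 bases after each annotated start, from RefSeq on GRCh38.p14, was found for 42 of the 48 members (51 windows). Motifs were searched on both strands as letters: the interferon-stimulated response element (ISRE) as GAAA, any 2 bases and GAAA, the gamma-activated site (GAS) as TTCNNNGAA and the antioxidant response element (ARE) as TGANNNNGC, where N is any base. The ISRE was in 7 of the 51 member windows and 3.57% of 35116 windows of all genes, the GAS in 8 and 7.66%, and the ARE in 32 and 41.8%. The windows below are written 5′ to 3′ on the gene's strand, and the capitals mark ISRE and GAS matches (ARE matches in PSMG1 only). A match is a run of letters and not a bound site. PSMB8 is shown at chr6:32843998-32844297 (minus strand), PSMB9 at chr6:32853942-32854241 (plus), PSMB10 at chr16:67936801-67937100 (minus), PSME1 at chr14:24135944-24136243 (plus), PSME2 at chr14:24146561-24146860 (minus), and PSMG1, the member with the largest fall in MOLM-13 cells, at chr21:39183402-39183701 (minus).
PSMB8: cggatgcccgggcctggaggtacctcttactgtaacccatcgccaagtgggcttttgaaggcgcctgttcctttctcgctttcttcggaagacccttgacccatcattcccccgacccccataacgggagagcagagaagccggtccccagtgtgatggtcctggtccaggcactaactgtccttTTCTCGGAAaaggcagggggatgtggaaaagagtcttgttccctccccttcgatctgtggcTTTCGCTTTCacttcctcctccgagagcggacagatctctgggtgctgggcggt
PSMB9: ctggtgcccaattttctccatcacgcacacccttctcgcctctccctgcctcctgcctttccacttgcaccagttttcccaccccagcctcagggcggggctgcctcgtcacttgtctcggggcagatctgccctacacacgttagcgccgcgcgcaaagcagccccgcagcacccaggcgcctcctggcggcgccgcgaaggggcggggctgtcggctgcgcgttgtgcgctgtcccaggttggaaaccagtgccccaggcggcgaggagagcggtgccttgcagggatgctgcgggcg
PSMB10: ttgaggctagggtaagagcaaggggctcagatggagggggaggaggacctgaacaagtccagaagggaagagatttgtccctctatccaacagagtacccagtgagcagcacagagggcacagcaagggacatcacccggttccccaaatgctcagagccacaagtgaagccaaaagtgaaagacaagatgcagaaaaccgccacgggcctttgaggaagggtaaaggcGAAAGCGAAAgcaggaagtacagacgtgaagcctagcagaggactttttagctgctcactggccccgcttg
PSME1: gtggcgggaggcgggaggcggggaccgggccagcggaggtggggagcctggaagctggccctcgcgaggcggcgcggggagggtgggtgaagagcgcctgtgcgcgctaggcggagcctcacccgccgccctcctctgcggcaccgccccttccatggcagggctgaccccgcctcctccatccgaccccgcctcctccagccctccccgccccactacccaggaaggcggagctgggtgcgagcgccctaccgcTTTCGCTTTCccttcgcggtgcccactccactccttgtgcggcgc
PSME2: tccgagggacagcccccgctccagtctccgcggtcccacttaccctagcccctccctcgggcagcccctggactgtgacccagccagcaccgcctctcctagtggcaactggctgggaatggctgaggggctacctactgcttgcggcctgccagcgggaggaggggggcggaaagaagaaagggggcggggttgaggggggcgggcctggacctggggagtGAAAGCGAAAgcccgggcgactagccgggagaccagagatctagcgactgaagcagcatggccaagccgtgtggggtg
PSMG1: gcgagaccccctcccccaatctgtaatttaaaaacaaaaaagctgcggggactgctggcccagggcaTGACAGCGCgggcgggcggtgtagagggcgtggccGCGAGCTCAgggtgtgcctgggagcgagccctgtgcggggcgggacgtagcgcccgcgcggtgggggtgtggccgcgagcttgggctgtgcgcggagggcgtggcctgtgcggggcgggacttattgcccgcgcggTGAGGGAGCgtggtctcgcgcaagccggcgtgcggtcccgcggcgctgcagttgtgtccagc
In PSMB10 and PSME2 the ISRE letters lie on the gene's own strand, and in PSMB8 and PSME1 on the opposite strand. The 4 matches share the exact letters GAAAGCGAAA, which also occur in a window of the assembly chaperone PSMG4 and in 35 of all windows (0.0997%); that exact search was chosen after the matches were seen. PSMB8 holds a GAS match upstream of its ISRE, and the 2 do not overlap. The window of its other annotated start, chr6:32844630-32844929, held neither. PSMB9 held neither motif in its window, which shares 13 bases with a window of the neighbouring peptide transporter gene TAP1. PSMG1 held 3 ARE matches and no ISRE or GAS.

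Libraries held 25063577 to 53291599 expected counts, and levels are given as CPM, a gene's share of a library's counts, scaled across all 27 libraries by the TMM method. CARM1 averaged 4.76 CPM with hairpin 1 and 4.0 with hairpin 2, against 24.5 with scramble, in MOLM-13 cells. It averaged 6.11 and 3.03 against 23.3 in MV411 cells, and 7.54 and 2.77 against 17.7 in SKNO1 cells (n = 3 each), so hairpin 2 left less CARM1 mRNA than hairpin 1 in MV411 and SKNO1. Mitochondrial ribosomal RNA took 26.1 to 31.5% of the knockdown libraries and 22.8 to 26.4% of the scramble libraries in MOLM-13, and 29.4 to 34.9% and 24.9 to 27.8% in MV411, but 0.0524 to 0.429% of knockdown and 0.0747 to 0.105% of scramble libraries in SKNO1. Structured RNAs such as RN7SL took 23.3 to 28.7% of the SKNO1 knockdown libraries and 17.7 to 19.9% of its scramble libraries, 13.3 to 21.9% and 11.3 to 13.5% in MOLM-13, and 11.3 to 15.7% and 11.2 to 13.1% in MV411. A list of 15 myeloid and leukaemia markers summed to 1740 to 6490 CPM in MOLM-13 knockdown and 1560 to 4620 CPM in scramble libraries, 1680 to 2640 and 1340 to 1890 CPM in MV411, and 2430 to 5510 and 2250 to 4080 CPM in SKNO1, with at most 2 markers at 0 in a group. A list of 15 markers of other cell types summed to 124 to 312 and 101 to 161 CPM in MOLM-13, 55.0 to 134 and 56.5 to 66.8 CPM in MV411 (115 to 134 with hairpin 2), and 3.87 to 12.5 and 5.57 to 9.67 CPM in SKNO1, most of it PECAM1, and 2 to 7 of them were at 0 in each group. Of that list, the erythroid globin HBB had no counts in any scramble library, while it had 0.402 to 0.58 CPM with hairpin 1 and 0.495 to 0.786 CPM with hairpin 2 in SKNO1 and averaged 0.0942 and 0.216 CPM in MOLM-13 and 0.321 and 0.0326 CPM in MV411 with hairpins 1 and 2; its part in the results was not tested. In bulk RNA, fewer cells of a type and less RNA per cell cannot be told apart.

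Some libraries stood apart in the proteasome genes themselves. For each library, the log2 difference from the mean of its line's scramble libraries was taken for every member outside the immunoproteasome, and the median is given here. SKNO1 scramble replicate 2 lay at 0.36, while replicates 1 and 3 lay at -0.15 and -0.21. MV411 scramble replicate 2 lay at -0.24, against 0.14 and 0.11 for the other 2. MOLM-13 hairpin 2 replicate 2 lay at -0.58, with replicates 1 and 3 at -0.43 and -0.05. The median over all genes stayed within 0.01 of 0 in every library. SKNO1 scramble replicates 1 and 3 were the most alike of all same-group pairs, with a chi-square of 7.76 per gene, against 23.2 for the next pair, which is still more than counting noise, and they were kept as 2 libraries.

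**Figure D1:**
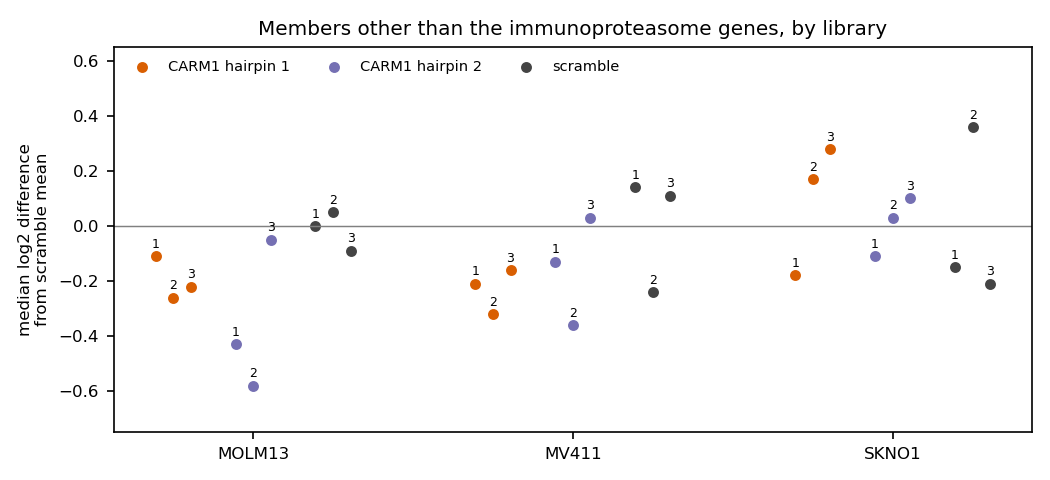
Median log2 difference of the members outside the immunoproteasome from the mean of the same line's scramble libraries, 1 point per library, with hairpin 1, hairpin 2 and scramble from left to right in each line and the replicate number beside each point. The MOLM-13 hairpin libraries lie from -0.58 to -0.05, whereas the 3 SKNO1 scramble libraries span -0.21 to 0.36, wider than the range of the SKNO1 hairpin 2 libraries.

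The first question was whether CARM1 knockdown, both hairpins together, changed proteasome transcripts in each line. Changes are log2 fold changes of knockdown over scramble with their standard error, tested with edgeR's quasi-likelihood test and Benjamini-Hochberg adjustment over all genes tested, with a threshold of 0.05. In MOLM-13 cells, 5 of the 46 members tested were lower and none was higher, where 9.09% of all genes tested were lower and 6.48% higher. In MV411 cells, 2 of 47 were lower, against 3.72% of all genes, and none was higher, against 1.71%. In SKNO1 cells none of 46 passed in either direction, where 0.0326% of all genes were higher and 0.0109% lower. There, 5 members had an unadjusted p under 0.05, and DESeq2 called 2, PSMB8 and PSMB10. CARM1 itself did not pass in that SKNO1 fit (-1.8 ± 0.36, adjusted p = 0.07), so the lack of calls does not show a lack of response. With each hairpin alone CARM1 passed in SKNO1 (hairpin 1 adjusted p = 0.021, hairpin 2 adjusted p = 3.3e-05). The shares of members called lower were close to those of all genes. In MOLM-13, 9 members had all 6 knockdown libraries below all 3 scramble libraries, where 12.5% of all genes did, and in MV411 4 members did, where 6.59% of all genes did.

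The members leaned lower in MOLM-13 and MV411 and not in SKNO1. The median log2 fold change was -0.26 over the 46 members in MOLM-13 and 0.05 over all genes tested, -0.24 and 0.01 in MV411, and 0.06 and 0.01 in SKNO1. Below 0 lay 44 of 46 members in MOLM-13, 39 of 47 in MV411 and 20 of 46 in SKNO1. Over all genes tested it was 8105 of 17732, 8625 of 17816 and 9052 of 18430. Members shifted together within single libraries, as given above, so they are not independent of each other. Without SKNO1 scramble replicate 2 the SKNO1 median was 0.26, with 7 of 46 below 0. In MOLM-13 the class medians were -0.30 for the alpha subunits, -0.32 for the standard beta subunits, -0.14 for the ATPases, -0.21 for the non-ATPases and -0.56 for the core assembly chaperones. In MV411 they were -0.29, -0.26, -0.20, -0.25 and -0.44 in the same order of classes, and in SKNO1 -0.21, 0.11, 0.00, 0.09 and -0.13. The immunoproteasome genes had medians of -0.14 in MOLM-13, -0.21 in MV411 and 0.66 in SKNO1, where all 5 lay above 0. Members outside the called ones ranged in MOLM-13 from PSMA2 at -0.42 to PSMA7 at -0.16 among the alpha subunits, and up to PSMD4, a ubiquitin receptor of the cap, at 0.18 among the non-ATPases. PSME3, the nuclear activator PA28-gamma, had -0.31 ± 0.10 in MOLM-13 (adjusted p = 0.054), -0.14 ± 0.12 in MV411 and 0.35 ± 0.21 in SKNO1, and passed in none. Of a list of 18 proliferation genes, such as MKI67 and TOP2A, 18 were lower in MOLM-13 (median -1.98) and 17 in MV411 (median -2.14). Of all genes, 9.09% and 3.72% were lower there. In SKNO1 none of the 18 passed with both hairpins together (median -0.49). With hairpin 2 alone 11 were lower in SKNO1 (median -0.79), against 5.69% of all genes. The proteasome members had a median of -0.03 with hairpin 2 in SKNO1. Without scramble replicate 2 that member median was 0.22, with 10 of 46 below 0. The part of the proliferation genes in the result was not tested.

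**Figure D2:**
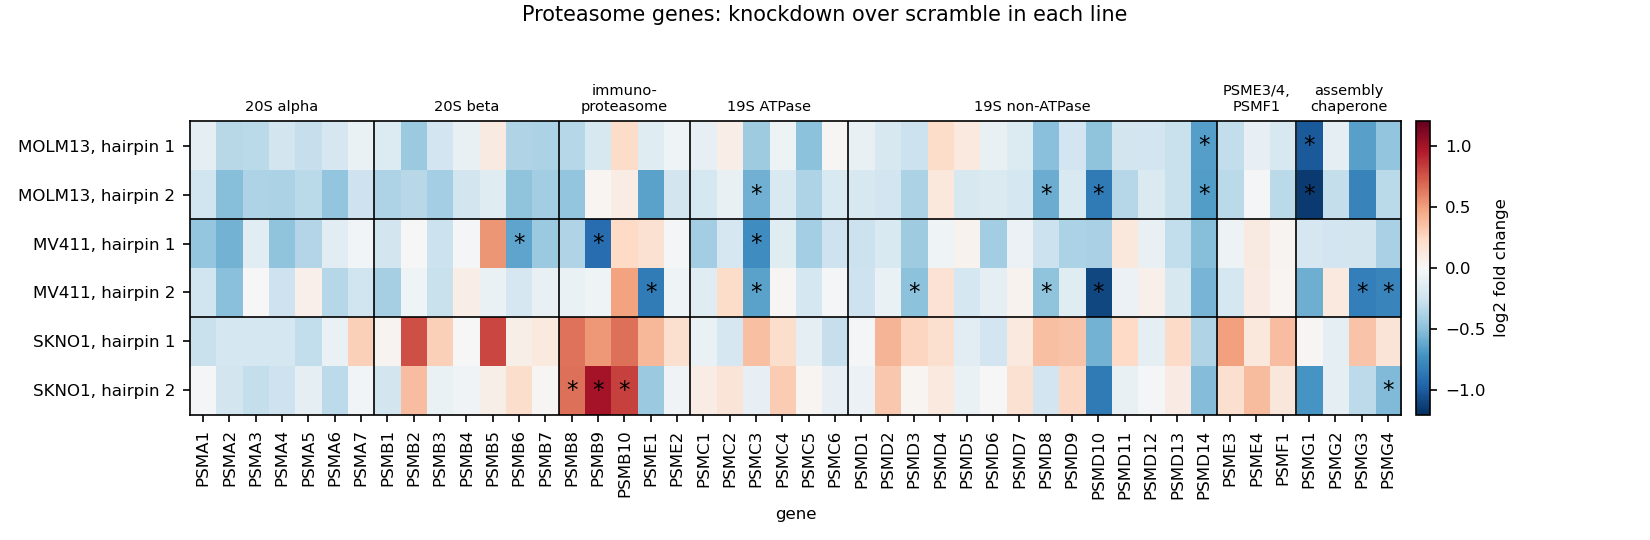
Log2 fold change of each hairpin over scramble (colour scale from -1.2 to 1.2) for 46 members, in columns grouped by class, with 2 rows per line, hairpin 1 above hairpin 2, and asterisks where the adjusted p was under 0.05. PSMG1 is low in both MOLM-13 rows (-1.01 and -1.15), whereas PSMB8, PSMB9 and PSMB10 are high with asterisks in the SKNO1 hairpin 2 row (0.66, 1.00 and 0.82).

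The assembly chaperones held the lowest member in MOLM-13. PSMG1, at chr21:39174769-39183851 on the minus strand, pairs with PSMG2 to build the alpha ring. It had 9.36, 13.7 and 13.8 CPM with hairpin 1 and 12.5, 8.62 and 11.97 with hairpin 2, against 20.8, 26.7 and 26.6 with scramble, so all 6 knockdown libraries lay below all 3 scramble libraries. It fell by 1.08 ± 0.17 on the log2 scale, to 47.4% of scramble (adjusted p = 0.0018), and passed with each hairpin alone (hairpin 1 -1.01 ± 0.21, adjusted p = 0.019; hairpin 2 -1.15 ± 0.21, adjusted p = 0.01). The hairpins share the scramble libraries. With any 1 of the 9 MOLM-13 libraries left out, the change with both hairpins together stayed between -1.19 and -1.01 and its adjusted p at or below 0.016. The hairpin 1 call of PSMG1 held in 4 of those 9 settings (adjusted p up to 0.093). The hairpin 2 call of PSMG1 held in 8 (adjusted p up to 0.052). Its partner PSMG2 had 43.4, 38.9 and 42.5 CPM with hairpin 1 and 31.1, 28.7 and 49.5 with hairpin 2, against 38.7, 47.6 and 49.3 with scramble; those ranges overlap, and the change of -0.21 ± 0.17 did not pass (adjusted p = 0.43).

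PSMG1 varied more in the other lines. In MV411 it had 22.8, 19.9 and 28.6 CPM with hairpin 1 and 19.2, 13.9 and 21.8 with hairpin 2, against 30.1, 21.05 and 29.99 with scramble, overlapping through the low scramble replicate 2 (-0.38 ± 0.20, adjusted p = 0.34). In SKNO1 it had 20.4, 33.45 and 39.2 CPM with hairpin 1 and 18.1, 18.4 and 20.15 with hairpin 2, against 26.6, 39.5 and 25.65 with scramble. There hairpin 2 lay below every scramble library and hairpin 1 spread across them, and neither passed (hairpin 2 -0.71 ± 0.25, adjusted p = 0.083; hairpin 1 0.01 ± 0.24, adjusted p = 0.99). Hairpin 2 had -0.46 ± 0.24 without scramble replicate 2 (adjusted p = 0.26), and it passed without hairpin 1 replicate 1 (-0.72 ± 0.19, adjusted p = 0.029). The difference of the knockdown effect, MOLM-13 minus SKNO1, was -0.79 ± 0.34 and did not pass (adjusted p = 0.25), so PSMG1 is not shown to respond differently between those lines.

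PSMG3 and PSMG4 form the second chaperone pair of the alpha ring. In MOLM-13, PSMG3 had 7.59, 14.5 and 13.8 CPM with hairpin 1 and 10.3, 11.15 and 10.4 with hairpin 2, against 16.1, 18.5 and 21.7 with scramble. All knockdown libraries lay below scramble, and PSMG3 fell by 0.72 ± 0.19 to 60.5% (adjusted p = 0.027). Without scramble replicate 3 its adjusted p was 0.14. In MV411 it was hairpin 2 that moved PSMG3, with 7.29, 9.63 and 12.8 CPM, against 14.7, 17.4 and 19.8 CPM with scramble (-0.82 ± 0.20, adjusted p = 0.016). PSMG4 in MV411 had 10.2, 11.8 and 12.15 CPM with hairpin 1 and 8.16, 9.67 and 8.15 with hairpin 2, against 13.9, 15.9 and 14.65 with scramble. Every knockdown library lay below every scramble library, and hairpin 2 passed, at 57.7% of scramble (-0.79 ± 0.15, adjusted p = 0.0048), whereas both hairpins together did not (-0.57 ± 0.17, adjusted p = 0.078). In SKNO1, PSMG4 had 14.8, 13.75 and 14.2 CPM with hairpin 2, against 20.3, 20.6 and 20.2 CPM with scramble, a fall by 0.53 ± 0.15 (adjusted p = 0.039) that no longer passed without scramble replicate 2 (-0.50 ± 0.17, adjusted p = 0.089). Both genes have exons that overlap a gene on the other strand, and whether the counting used strand is not given in the sources used here.

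**Figure D3:**
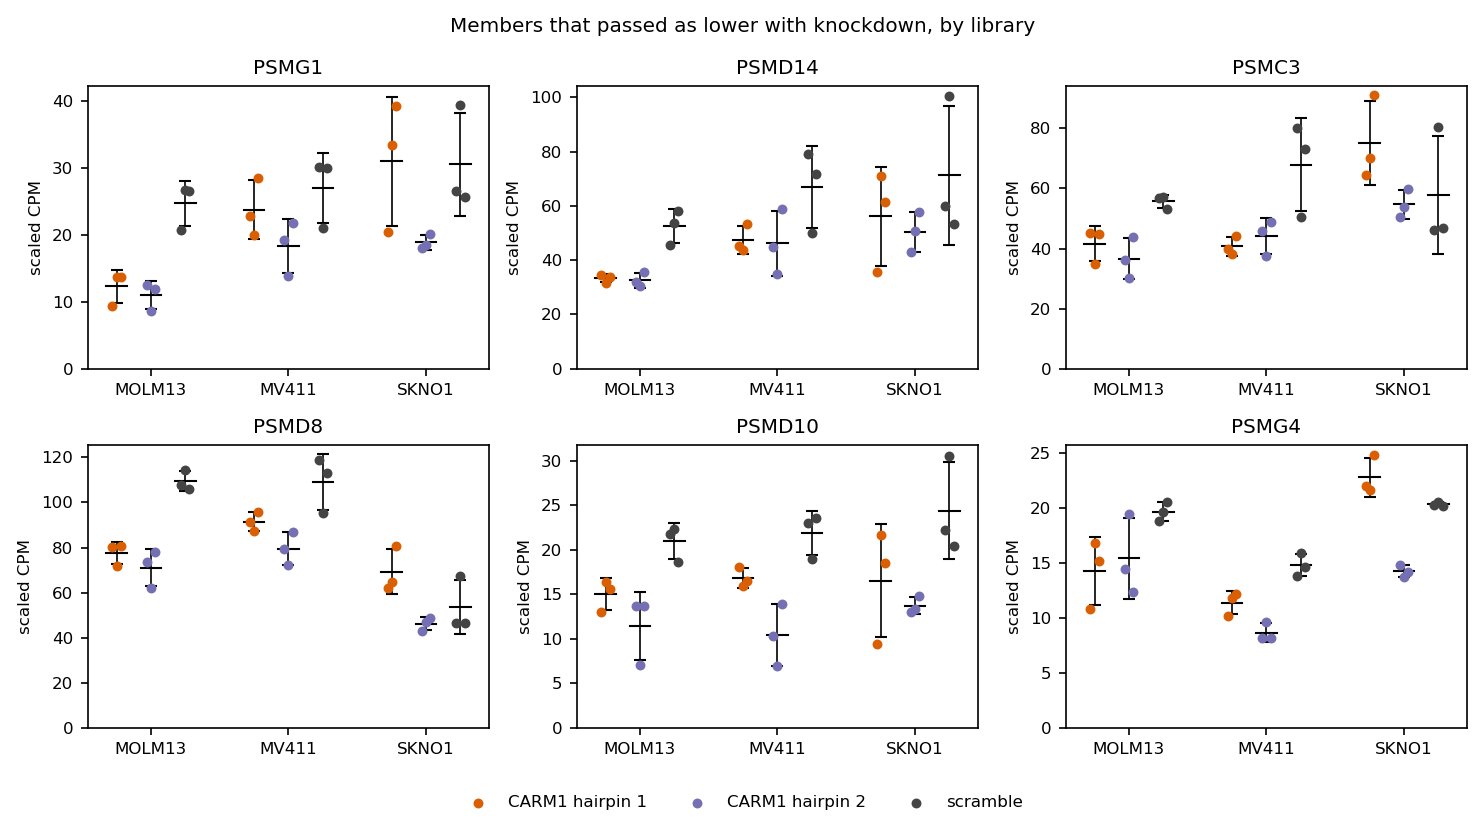
Scaled CPM of PSMG1, PSMD14, PSMC3, PSMD8, PSMD10 and PSMG4 in each library, with the mean and SD of each group (n = 3), for hairpin 1, hairpin 2 and scramble from left to right in each line. In MOLM-13 the scramble libraries lie above all knockdown libraries for PSMG1, PSMD14, PSMC3, PSMD8 and PSMD10, while in SKNO1 scramble replicate 2 stands apart, at 100.7 CPM for PSMD14.

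In the 19S lid, PSMD14 showed the clearest change. PSMD14, at chr2:161308038-161411717, has exons that overlap AC009299.3 on the other strand, with the same limit as for PSMG3 and PSMG4. It is the metalloprotease that cuts ubiquitin chains from substrates. In MOLM-13 it had 34.7, 31.6 and 33.8 CPM with hairpin 1 and 31.9, 30.3 and 35.55 with hairpin 2, against 45.7, 53.8 and 58.3 with scramble. The groups did not overlap, PSMD14 fell by 0.67 ± 0.11 to 63.0% (adjusted p = 0.0026), and it passed with each hairpin (-0.66 ± 0.14 and -0.67 ± 0.14, adjusted p = 0.022 and 0.018 for hairpins 1 and 2). Its hairpin 1 call held in 4 of the 9 settings with 1 library left out (adjusted p up to 0.11). Its hairpin 2 call held in 7 (adjusted p up to 0.083). In MV411 it had 45.2, 43.75 and 53.4 CPM with hairpin 1 and 44.8, 35.1 and 59.0 with hairpin 2, against 79.1, 49.99 and 71.7 with scramble, and the change of -0.53 ± 0.18 did not pass (adjusted p = 0.12). In SKNO1 it had 35.7, 71.2 and 61.6 CPM with hairpin 1 and 42.95, 50.6 and 57.7 with hairpin 2, against 59.9, 100.7 and 53.4 with scramble (-0.44 ± 0.25, adjusted p = 0.43). Without scramble replicate 2 the change was -0.71 ± 0.18 in MV411 (adjusted p = 0.051) and -0.08 ± 0.25 in SKNO1 (adjusted p = 0.93). With the replicate block PSMD14 passed in MV411 with each hairpin (hairpin 1 -0.49 ± 0.14, adjusted p = 0.046; hairpin 2 -0.56 ± 0.14, adjusted p = 0.013).

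PSMD8 and PSMD3 are structural subunits of the lid. PSMD8 in MOLM-13 had 80.3, 72.0 and 80.5 CPM with hairpin 1 and 73.4, 62.0 and 78.0 with hairpin 2, against 107.6, 114.6 and 106.2 with scramble. Those groups stood well apart, and PSMD8 fell by 0.55 ± 0.11 to 68.3% (adjusted p = 0.0081; 0.059 without scramble replicate 2). In MV411, PSMD8 had 79.2, 72.25 and 86.8 CPM with hairpin 2, against 118.9, 95.3 and 113.1 CPM with scramble (-0.48 ± 0.13, adjusted p = 0.026). PSMD3 in MV411 had 48.7, 48.6 and 50.1 CPM with hairpin 1 and 44.6, 47.9 and 48.9 with hairpin 2, against 67.4, 60.7 and 68.4 with scramble. Its 6 knockdown libraries lay within a narrow band below scramble, and PSMD3 fell by 0.46 ± 0.11 to 72.7% (adjusted p = 0.03); without scramble replicate 3 the adjusted p was 0.16. In SKNO1 neither passed (PSMD8 0.09 ± 0.22, adjusted p = 0.88; PSMD3 0.14 ± 0.16, adjusted p = 0.72), nor did they without scramble replicate 2 (PSMD8 0.31 ± 0.24, adjusted p = 0.65; PSMD3 0.22 ± 0.19, adjusted p = 0.69).

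In the ATPase ring, which unfolds substrates and threads them into the core, PSMC3 was the member called in both MOLM-13 and MV411. In MOLM-13 it had 45.1, 34.9 and 44.8 CPM with hairpin 1 and 36.2, 30.1 and 43.7 with hairpin 2, against 57.0, 57.0 and 53.1 with scramble. MV411 cells had 39.7, 38.2 and 44.3 CPM with hairpin 1 and 45.9, 37.55 and 48.95 with hairpin 2, against 80.1, 50.4 and 73.3 with scramble. In both lines every knockdown library lay below every scramble library. PSMC3 fell by 0.50 ± 0.14 in MOLM-13 (70.6% of scramble, adjusted p = 0.029) and by 0.70 ± 0.16 in MV411 (61.7%, adjusted p = 0.024), and leaving out 1 library could raise the adjusted p to 0.12 and 0.14 (without MOLM-13 scramble replicate 2 and MV411 scramble replicate 3). SKNO1 cells had 64.4, 70.0 and 91.1 CPM with hairpin 1 and 50.4, 53.8 and 60.0 with hairpin 2, against 46.3, 80.4 and 46.9 with scramble, with no call (0.15 ± 0.23, adjusted p = 0.81; 0.48 ± 0.23, adjusted p = 0.46, without scramble replicate 2). The difference between the MV411 and SKNO1 effects, -0.84 ± 0.27, did not pass (adjusted p = 0.16), but it did without SKNO1 scramble replicate 2 (-1.16 ± 0.27, adjusted p = 0.046).

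PSMD10, also known as gankyrin, is a chaperone of the cap's base that binds the ATPase PSMC4. It had nearly the same change in all 3 lines, -0.66 ± 0.21 in MOLM-13, -0.70 ± 0.25 in MV411 and -0.70 ± 0.24 in SKNO1, and passed in none of them alone (adjusted p = 0.054, 0.14 and 0.20). Without SKNO1 scramble replicate 2 the SKNO1 change was -0.49 ± 0.27 (adjusted p = 0.51). MV411 cells had 18.1, 15.9 and 16.45 CPM with hairpin 1 and 10.3, 6.99 and 13.9 with hairpin 2, against 23.0, 19 and 23.6 with scramble. Hairpin 2 was lowest, and it passed at 46.9% of scramble (-1.09 ± 0.21, adjusted p = 0.0053; -1.36 to -0.89 with 1 library left out). SKNO1 cells had 9.45, 21.6 and 18.55 CPM with hairpin 1 and 13.0, 13.3 and 14.8 with hairpin 2, against 22.2, 30.5 and 20.4 with scramble. In MOLM-13 it had 13.0, 16.4 and 15.6 CPM with hairpin 1 and 13.7, 7.03 and 13.65 with hairpin 2, against 21.8, 22.4 and 18.6 with scramble. Hairpin 2 alone passed there (-0.85 ± 0.24, adjusted p = 0.048), a call that held in 1 of the 9 settings with 1 library left out (-1.01 to -0.61, adjusted p up to 0.16 without scramble replicate 2). Every knockdown library lay below every scramble library in MOLM-13 and MV411, and in SKNO1 1 hairpin 1 library overlapped scramble.

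With all 27 libraries in 1 fit, and line as a term, 7 of the 47 members tested were lower with knockdown, against 9.79% of all genes, and 1 was higher, against 10.1%. PSMD10 fell by 0.68 ± 0.14 to 62.5% of scramble (adjusted p = 0.0011), PSMD14 by 0.54 ± 0.11 to 68.9% (adjusted p = 0.0011) and PSMG1 by 0.59 ± 0.15 to 66.4% (adjusted p = 0.0054). The alpha subunit PSMA2, part of the outer ring, fell by 0.38 ± 0.11 (76.8%, adjusted p = 0.017) and PSMG4 by 0.37 ± 0.11 (77.5%, adjusted p = 0.019). These 5 and PSMB10, the member that rose, passed with any 1 of the 27 libraries left out. PSMC3 (-0.36 ± 0.12, adjusted p = 0.043) and the ATPase PSMC5 (-0.25 ± 0.09, adjusted p = 0.038) did not, with adjusted p up to 0.1 and 0.095, and neither passed with RLE in place of TMM scaling. The combined median over the 47 members was -0.13, against 0.05 over all genes.

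With hairpin 1 alone, 2 of 46 members were lower in MOLM-13 (4.25% of all genes), 3 of 47 in MV411 (4.13%) and none in SKNO1 (0.277%), where 8 members had an unadjusted p under 0.05 and DESeq2 called 3 higher. With hairpin 2 alone, 5 of 46 were lower in MOLM-13 (6.03%), 7 of 47 in MV411 (10.2%) and 1 of 46 in SKNO1 (5.69%). No member was higher with either hairpin in MOLM-13 (2.13% of all genes with hairpin 1 and 3.39% with hairpin 2) or MV411 (2.37% and 8.38%). The labels do not say that replicate numbers pair libraries. In MV411 they were taken to do so by a correlation rule, given under processing, that its lowest pair met narrowly (0.101 against 0.1). With the number as a block 12 members were lower with hairpin 2 (14.8% of all genes). PSMG1 was among them (-0.59 ± 0.12, adjusted p = 0.005, against 0.077 with no block). In the same fit 9 members were lower with hairpin 1 (7.43%) and 1, PSMB5, was higher (5.2%). Hairpin 2 raised 3 members in SKNO1 (5.54% of all genes) and hairpin 1 raised none there (0.255%); these are described with the immunoproteasome.

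Among the standard catalytic subunits, PSMB5, the chymotrypsin-like site that proteasome inhibitors target, separated the hairpins. PSMB5 in MV411 had 72.5, 57.0 and 66.1 CPM with hairpin 1 and 45.5, 37.4 and 46.0 with hairpin 2, against 52.3, 37.4 and 44.8 with scramble. PSMB5 in SKNO1 had 90.7, 90.8 and 104.0 CPM with hairpin 1 and 54.3, 58.1 and 60.0 with hairpin 2, against 48.4, 69.4 and 44.2 with scramble. In both lines every hairpin 1 library lay above every other library, and hairpin 2 overlapped scramble. Hairpin 2 over hairpin 1 was -0.61 ± 0.16 in MV411 (adjusted p = 0.029) and -0.73 ± 0.19 in SKNO1 (adjusted p = 0.03). Hairpin 1 over scramble was 0.53 ± 0.16 in MV411 (adjusted p = 0.076, and 0.0091 with the replicate block) and 0.80 ± 0.19 in SKNO1 (adjusted p = 0.084). Without SKNO1 scramble replicate 2 the SKNO1 value was 1.04 ± 0.17 (adjusted p = 0.03).

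PSMB6 and PSMB7 carry the caspase-like and trypsin-like sites. PSMB6 in MV411 had 25.6, 22.75 and 26.3 CPM with hairpin 1, against 41.7, 33.4 and 39.25 CPM with scramble, a fall by 0.63 ± 0.14 to 64.8% (adjusted p = 0.023); hairpin 2, at 34.25, 29.6 and 37.4 CPM, overlapped scramble. The hairpin 1 call held in 3 of the 9 settings with 1 library left out (adjusted p up to 0.12). PSMB7 in MOLM-13 had 57.4, 39.8 and 42.2 CPM with hairpin 1 and 39.0, 39.3 and 55.0 with hairpin 2, against 56.5, 62.7 and 61.3 with scramble, and overlapped through 1 hairpin 1 library (-0.40 ± 0.15, adjusted p = 0.093). PSMB2, a beta subunit with no proteolytic site, had 34.1, 29.4 and 28.4 CPM with hairpin 1 and 25.7, 33.9 and 38.3 with hairpin 2, against 43.2, 44.3 and 37.25 with scramble, in MOLM-13 (-0.39 ± 0.14, adjusted p = 0.08). PSMB2 in SKNO1 had 43.1, 45.2 and 56.5 CPM with hairpin 1 and 34.8, 33.3 and 42.0 with hairpin 2, against 22.4, 38.4 and 23.1 with scramble (0.58 ± 0.23, adjusted p = 0.26). The 2 effects were opposite in sign, and scramble replicate 2 of SKNO1 lay among the knockdown libraries.

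The inducible catalytic subunits PSMB8, PSMB9 and PSMB10 passed as higher in SKNO1 with hairpin 2, and not with hairpin 1 or with both hairpins together. PSMB8, at chr6:32840717-32844703 on the minus strand, had 18.75, 16.5 and 16.4 CPM with hairpin 1 and 15.5, 20 and 16.5 with hairpin 2, against 10.1, 12.7 and 9.68 with scramble. PSMB10, at chr16:67934502-67937087, had 34.65, 36.3 and 50.3 CPM with hairpin 1 and 32.2, 53.2 and 50.35 with hairpin 2, against 23.7, 23.7 and 28.55 with scramble. PSMB9, at chr6:32844136-32859585, had 1.44, 1.97 and 1.88 CPM with hairpin 1 and 1.67, 3.32 and 2.40 with hairpin 2, against 1.09, 1.33 and 1.23 with scramble. For all 3 genes every knockdown library lay above every scramble library; 4 of the 46 members had such ranges, and 4.6% of all genes did.

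With hairpin 2, PSMB8 rose by 0.66 ± 0.18 to 158% of scramble (adjusted p = 0.033), PSMB9 by 1.00 ± 0.28 to 200% (adjusted p = 0.036) and PSMB10 by 0.82 ± 0.22 to 177% (adjusted p = 0.03). With hairpin 1 the values were 0.65 ± 0.18 for PSMB8 (adjusted p = 0.11), 0.52 ± 0.28 for PSMB9 (adjusted p = 0.37) and 0.66 ± 0.22 for PSMB10 (adjusted p = 0.16), and with both hairpins together 0.66 ± 0.17, 0.78 ± 0.28 and 0.75 ± 0.20 for PSMB8, PSMB9 and PSMB10 (adjusted p = 0.12, 0.22 and 0.13). Each hairpin 2 call held in 4 of the 9 settings with 1 library left out and reached an adjusted p of 0.15 to 0.19 without hairpin 2 replicate 2. Without scramble replicate 2, PSMB8 passed (0.81 ± 0.19, adjusted p = 0.023), while PSMB9 and PSMB10 did not (1.08 ± 0.31, adjusted p = 0.055; 0.79 ± 0.25, adjusted p = 0.074). PSMB9 is a low-count gene here, with 45 to 275 counts per library, and exons of PSMB8 and PSMB9 overlap on opposite strands. HBB moved with these genes in SKNO1, with counts in all 6 knockdown libraries and in no scramble library, and its part in the rise was not tested.

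**Figure D4:**
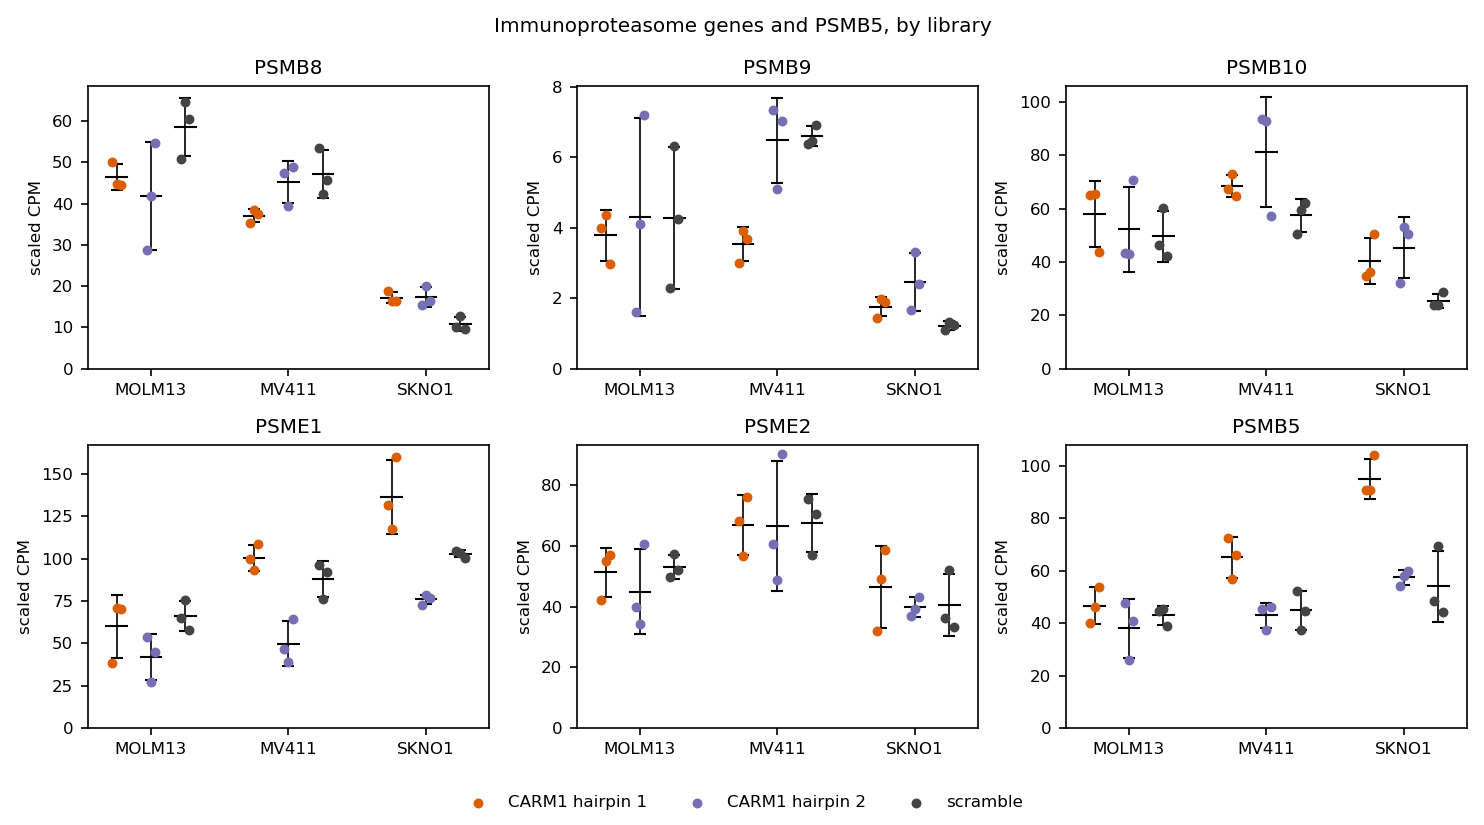
Scaled CPM of PSMB8, PSMB9, PSMB10, PSME1, PSME2 and the standard subunit PSMB5 in each library, with the mean and SD of each group (n = 3), for hairpin 1, hairpin 2 and scramble from left to right in each line. In SKNO1, PSMB8, PSMB9 and PSMB10 lie above scramble with both hairpins; PSME1 lies below scramble with hairpin 2 in MV411 and SKNO1 (38.8 to 64.4 CPM against 76.0 to 96.1, and 72.9 to 78.3 CPM against 100.5 to 104.4).

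In MOLM-13 and MV411, PSMB8 and PSMB9 did not pass as higher with either hairpin. PSMB8 in MOLM-13 had 50.1, 44.7 and 44.5 CPM with hairpin 1 and 28.8, 41.9 and 54.8 with hairpin 2, against 50.7, 64.6 and 60.4 with scramble (-0.40 ± 0.17, adjusted p = 0.14). PSMB8 in MV411 had 35.35, 38.4 and 37.4 CPM with hairpin 1 and 47.5, 39.3 and 48.8 with hairpin 2, against 53.5, 42.3 and 45.6 with scramble (-0.21 ± 0.14, adjusted p = 0.45). PSMB9 in MV411 differed by hairpin, with 2.99, 3.91 and 3.69 CPM for hairpin 1 and 7.33, 5.10 and 7.02 for hairpin 2, against 6.39, 6.47 and 6.91 for scramble. Hairpin 1 lay below scramble and hairpin 2 around it: hairpin 1 fell to 53.2% (-0.91 ± 0.19, adjusted p = 0.017), hairpin 2 did not change it beyond the spread (-0.05 ± 0.19, adjusted p = 0.90), and hairpin 2 over hairpin 1 was 0.86 ± 0.19 (adjusted p = 0.015). PSMB10 was above 0 in all 3 lines, at 0.16 ± 0.20 in MOLM-13, 0.37 ± 0.18 in MV411 and 0.75 ± 0.20 in SKNO1. It had 67.3, 72.9 and 64.8 CPM with hairpin 1 and 93.4, 92.9 and 57.2 with hairpin 2, against 50.6, 59.5 and 62.2 with scramble, in MV411, where 5 of 6 knockdown libraries lay above every scramble library and the change did not pass (adjusted p = 0.28). In the combined fit it rose by 0.42 ± 0.12 to 134% of scramble (adjusted p = 0.015).

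PSME1, at chr14:24136158-24138967, encodes the alpha subunit of the interferon-inducible cap and had the largest difference between hairpins. Its exons overlap EMC9 on the other strand, and whether the counting used strand is not given in the sources used here. PSME1 in MV411 had 99.9, 93.3 and 108.4 CPM with hairpin 1 and 46.4, 38.8 and 64.4 with hairpin 2, against 96.1, 76.0 and 92.2 with scramble. PSME1 in SKNO1 had 131.7, 117.6 and 160.3 CPM with hairpin 1 and 72.9, 78.3 and 76.55 with hairpin 2, against 104.4, 103.5 and 100.5 with scramble. In both lines hairpin 2 lay below every scramble library, and in SKNO1 hairpin 1 lay above every one. Hairpin 2 over hairpin 1 was -1.02 ± 0.18 in MV411 (49.2%, adjusted p = 0.005) and -0.85 ± 0.16 in SKNO1 (55.5%, adjusted p = 0.0052), and both passed with any 1 library of the line left out. Against scramble, hairpin 2 passed in MV411 (-0.84 ± 0.18, adjusted p = 0.0082) and not in SKNO1 (-0.45 ± 0.16, adjusted p = 0.082). In MOLM-13, PSME1 had 38.3, 71.05 and 70.4 CPM with hairpin 1 and 53.9, 26.9 and 44.65 with hairpin 2, against 64.9, 75.6 and 57.9 with scramble, and the hairpins overlapped (-0.49 ± 0.28, adjusted p = 1).

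PSME2, which encodes the partner subunit in the same ring, did not pass between the hairpins in any line. In MV411 it had 68.3, 56.6 and 76.3 CPM with hairpin 1 and 60.6, 48.7 and 90.25 with hairpin 2, against 75.4, 56.9 and 70.55 with scramble. In SKNO1 it had 32.0, 49.0 and 58.7 CPM with hairpin 1 and 36.9, 39.3 and 43.3 with hairpin 2, against 36.1, 52.1 and 33.2 with scramble. The groups overlapped in both lines. Hairpin 2 over hairpin 1 was -0.17 ± 0.20 in MOLM-13 (adjusted p = 1), -0.03 ± 0.21 in MV411 (adjusted p = 0.96) and -0.23 ± 0.24 in SKNO1 (adjusted p = 0.61). Exons of PSME2 overlap RNF31 on the other strand, with the same limit as for PSME1. PSME1 and PSME2 both carry the ISRE letters printed above, and so do PSMB8 and PSMB10.

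Between the hairpins, 1 member was higher and 2 were lower with hairpin 2 in MV411 (5.86% and 5.62% of all genes), and in SKNO1 none was higher (4.52%) and 3 were lower (5.0%), the third being PSMG4 (-0.68 ± 0.15, adjusted p = 0.014). In MOLM-13 no member passed by edgeR or DESeq2, none had an unadjusted p under 0.05, and 0.0% of all genes passed. With the replicate block 4 members were higher (9.7% of all genes) and 5 lower (10.0%) with hairpin 2 in MV411. Hairpin 2 left less CARM1 than hairpin 1 in MV411 (-1.02 ± 0.18, adjusted p = 0.0046) and SKNO1 (-1.45 ± 0.20, adjusted p = 0.00096), and the hairpins differ in sequence as well, so the depth of knockdown and other effects of a hairpin cannot be told apart.

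Whether the lines responded differently was tested as an interaction over all 27 libraries. MOLM-13 minus SKNO1 gave 2 members of 47 past the threshold, both lower in MOLM-13, against 0.635% of all genes; none was higher (0.301%). PSMB8 differed by -1.08 ± 0.23 (adjusted p = 0.022) and PSMB2 by -1.0 ± 0.24 (adjusted p = 0.039). PSMB8 passed in 23 of the 27 settings with 1 library left out, with an adjusted p up to 0.12 without SKNO1 scramble replicate 1, and PSMB2 in 17, with an adjusted p up to 0.18 without that library. The median member difference was -0.34, against 0.03 over all genes, and 43 of 47 lay below 0, against 10122 of 21262 genes. No member passed for MV411 minus SKNO1, where 0.494% of all genes were lower and 0.0658% higher, 8 members had an unadjusted p under 0.05 and DESeq2 called PSMB8. None passed for MOLM-13 minus MV411 by either tool, where 0.0% of all genes passed and 1 member had an unadjusted p under 0.05.

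The lines differed in their proteasome genes without CARM1 knockdown. These comparisons use the 9 scramble libraries and compare 3 cell lines, not kinds of leukaemia; since GM-CSF was added to SKNO1 alone, the line and the supplement cannot be told apart. Of 47 members, 5 were higher and 14 lower in SKNO1 than in MOLM-13, where 27.2% of all genes were higher and 28.8% lower. In SKNO1 over MV411, 6 were higher and 17 lower (27.1% and 28.4%), and in MOLM-13 over MV411, 4 were higher and 3 lower (16.0% and 14.8%). Higher members were fewer than the share among all genes in each, and lower ones near it in SKNO1 over MOLM-13.

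PSMB8, PSMB9 and PSMB10 were lower in SKNO1 than in both other lines. Per kilobase of exon, PSMB8 averaged 3.61 ± 0.546 CPM in SKNO1, 19.5 ± 2.37 in MOLM-13 and 15.7 ± 1.92 in MV411 (SD, n = 3 each), and its standard counterpart PSMB5 30.6 ± 7.63, 24.3 ± 1.98 and 25.4 ± 4.22. PSMB8 stood at 18.3% of its MOLM-13 level in SKNO1 (-2.45 ± 0.16, adjusted p = 2.3e-07) and 23.0% of its MV411 level (-2.12 ± 0.16, adjusted p = 7.0e-07). PSMB9 was at 28.3% of MOLM-13 and 18.5% of MV411 (adjusted p = 0.00058 and 7.5e-05), and PSMB10 at 50.7% and 44.1% (adjusted p = 0.00037 and 9.6e-05). The rise of PSMB8 with hairpin 2 in SKNO1 started from the lowest level of the 3 lines, and its 15.5 to 20 CPM stayed below the 50.7 to 64.6 CPM of MOLM-13 scramble cells. PSME1 ran the other way, at 57.7 ± 1.12 CPM per kilobase in SKNO1, 37.1 ± 5.01 in MOLM-13 and 49.5 ± 6.0 in MV411, and was higher in SKNO1 than in MOLM-13 (0.62 ± 0.14, adjusted p = 0.0022).

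**Figure D5:**
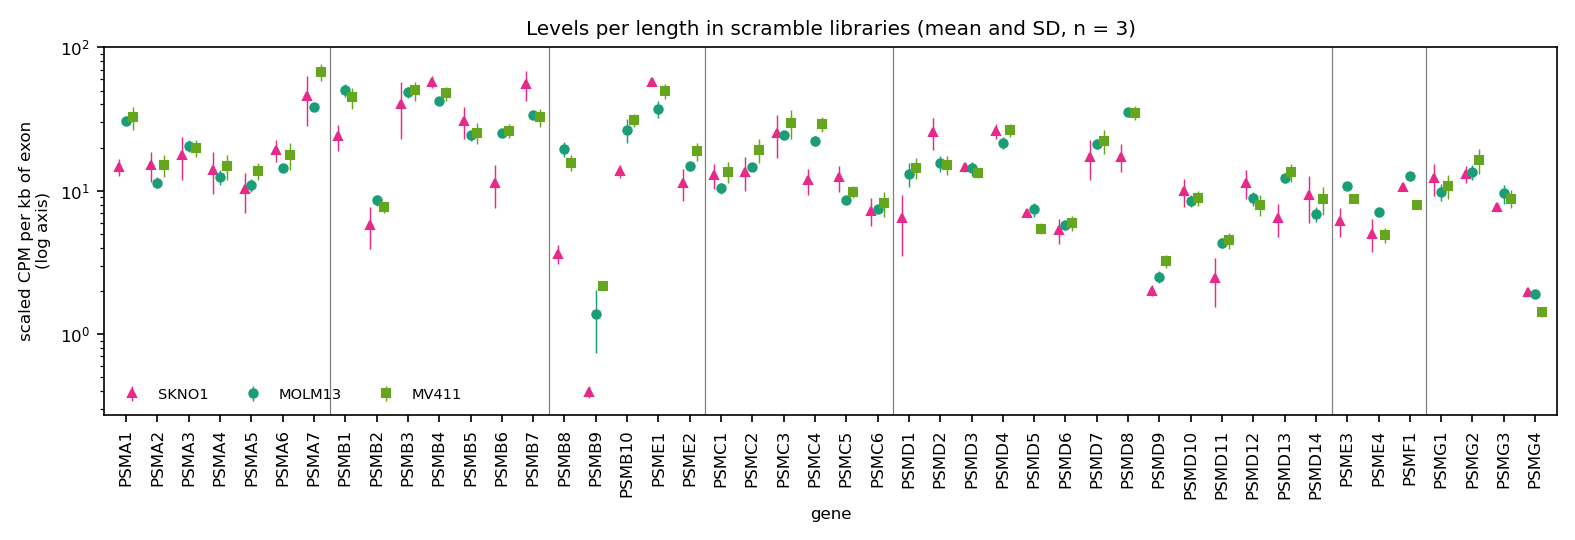
Scaled CPM per kilobase of exon (log axis) for the members in scramble libraries, mean and SD (n = 3), for SKNO1, MOLM-13 and MV411. PSMB8 lies at 3.61 in SKNO1, against 19.5 in MOLM-13 and 15.7 in MV411, whereas the paired standard subunit PSMB5 lies between 24.3 and 30.6 in all 3 lines.

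Standard subunits of 1 ring did not differ by 1 factor between lines. The caspase-like PSMB6 was lower in SKNO1 (11.4 ± 3.83 CPM per kilobase) than in MOLM-13 (25.1 ± 0.817) and MV411 (26.3 ± 2.96), whereas the trypsin-like PSMB7 was higher in SKNO1 (55.6 ± 13.3) than in MOLM-13 (33.7 ± 1.81) and MV411 (32.6 ± 4.82). PSMB7 over MOLM-13 was 0.71 ± 0.17 (adjusted p = 0.0042), and PSMB6 passed in the other direction with a log2 fold change of -1.16. In the cap's base, the scaffold PSMD2 was higher in SKNO1 (0.71 over MOLM-13 and 0.77 over MV411), while its fellow scaffold PSMD1 was lower (-1.04 and -1.17) and the ATPase PSMC4 lower too (-0.93 and -1.31). The inhibitor and transport factor PSMF1 was higher in MOLM-13 than in MV411 (0.69 ± 0.11, adjusted p = 0.00065).

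Levels per kilobase ordered the members alike at the bottom and less so at the top. The length used is the union of annotated exons, such as 10418 bases for PSMG4 and 8774 for PSMD9. It is the same in every line, so a long gene model lowers a member's rank in all 3. The highest were PSME1 (57.7) and PSMB4 (57.5) in SKNO1, PSMB1 (50.4) and PSMB3 (48.8) in MOLM-13, and PSMA7 (67.4) and PSMB3 (50.1) in MV411. PSME1 and PSMB4 in SKNO1 were apart by less than their spread (SD 1.12 and 5.6), whereas at the bottom PSMG4 (1.95 ± 0.0186) lay above PSMB9 (0.397 ± 0.0391) there. The core beta subunits had median levels of 27.2 in SKNO1, 29.4 in MOLM-13 and 29.5 in MV411, and the assembly chaperones 9.93, 9.70 and 9.81. PSMB9 ranked 46 of 48 in all 3 lines.

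The tissue-restricted members were near or at 0, except for 1. PSMB11, the beta subunit of thymic epithelium, had 0 or 1 count per library and was tested nowhere. PSMA8, the alpha subunit of spermatocytes, had no counts in any of the 9 MOLM-13 or 9 SKNO1 libraries but 548 counts over the 3 MV411 scramble libraries. That is at least 205-fold higher in MV411 than in MOLM-13 and at least 237-fold higher than in SKNO1, taking 3 counts over the group as the floor, which covers counting error only. Within MV411, PSMA8 had 3.49, 3.28 and 2.87 CPM with hairpin 1 and 2.71, 2.65 and 3.84 with hairpin 2, against 6.85, 3.52 and 5.07 with scramble, overlapping through 1 scramble library; with the replicate block hairpin 2 passed (-0.74 ± 0.24, adjusted p = 0.041).

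Other genes of the pathway came from lists chosen with earlier results of these data known. Of 30 tested genes that encode ubiquitin enzymes, shuttles and proteasome partners, 3 were lower in MOLM-13, where 9.09% of all genes were. These were the deubiquitinase UCHL5 (-0.53), the proteasome-binding PITHD1 (-0.45) and the ubiquitin-activating enzyme UBA6 (-0.46). UBA6 alone was lower in MV411 (-0.69), against 3.72% of all genes, and MIDN alone was higher in SKNO1, against 0.0326%. The shares called lower in MOLM-13 and MV411 were near those of all genes. MIDN, which carries proteins to the proteasome without ubiquitin, averaged 4.39 ± 0.827 CPM with hairpin 1 and 5.96 ± 1.29 with hairpin 2, against 1.67 ± 0.183 with scramble, in SKNO1 (SD, n = 3), and passed with each hairpin (1.38 ± 0.23, adjusted p = 0.033; 1.82 ± 0.23, adjusted p = 0.00091). Its SKNO1 scramble level was far below that of MOLM-13 (-2.56 ± 0.24, adjusted p = 4.9e-06). POMP, the maturation factor of the core, was not called in any line. Of 9 tested genes that control proteasome transcription, 1 was lower in MOLM-13 (9.09% of all genes) and 1 higher in MV411 (1.71%). The lower was the promoter-binding factor NFYB (-0.66, adjusted p = 0.017). The higher was NFE2L2, which shares the antioxidant response element with NFE2L1 (0.58, adjusted p = 0.041). NFE2L1 was not called (-0.34, -0.33 and 0.30 in MOLM-13, MV411 and SKNO1; adjusted p = 0.16, 0.20 and 0.34).

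Of the genes that control or serve the immunoproteasome and MHC class I loading, 5 of 19 tested were higher with hairpin 2 in SKNO1, and 9 of 20 were higher and 1 lower with hairpin 2 in MV411. Of 33 effectors of type I interferon, 19 were higher with hairpin 2 in SKNO1 (median 1.01) and 29 in MV411 (median 2.05), where 5.54% and 8.38% of all genes were higher. With hairpin 1 their median was -0.27 in SKNO1 and 0.86 in MV411, where 1 was higher. In MOLM-13 their medians were -0.39 with hairpin 1 and -0.35 with hairpin 2. Their part in the values of PSMB8, PSMB9 and PSMB10 was not tested. IRF1, an interferon-regulated factor that binds ISRE sequences, was higher with hairpin 2 in SKNO1 (0.68 ± 0.19, adjusted p = 0.035), and so was IRF9 (1.35). NLRC5, the activator of MHC class I genes, was not called there (0.09 ± 0.17, adjusted p = 0.79), nor did TAP1 pass (0.42 ± 0.16, adjusted p = 0.11). In MV411, hairpin 2 raised NLRC5 (0.64 ± 0.17, adjusted p = 0.025) and TAP1 (0.48 ± 0.14, adjusted p = 0.032), while PSMB8 and PSMB9 were not called and PSME1 was lower. TAP2, from the same list as TAP1, was lower with hairpin 2 in MV411 (-0.76 ± 0.16, adjusted p = 0.0086). It was also lower in MOLM-13 with both hairpins together (-0.88 ± 0.2, adjusted p = 0.015). In scramble cells NLRC5 and TAP1 were lower in SKNO1 than in MOLM-13 (-1.91 and -1.99) and MV411 (-1.78 and -1.41), the same direction as PSMB8, PSMB9 and PSMB10.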

How the data were processed

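The deposited table holds RSEM expected counts per gene as the authors made them, with no normalisation. The submitters' processing notes name the aligner STAR 2.5.3, the build GRCh38.p7 and RSEM without a version. Of the non-zero values 30.39% were not whole (tolerance 1e-09). The libraries came from a stranded total-RNA kit with ribosomal RNA depletion, per the labels' protocols; the strand setting of the counting is not given in the sources used here. Counts were rounded, and genes were kept by edgeR's filterByExpr (minimum count 10, minimum total 15). Tests used edgeR 4.0.16 in R 4.3.3: TMM scaling, the quasi-likelihood F-test and Benjamini-Hochberg adjustment over all genes tested, with a threshold of 0.05. The standard error is the fold change divided by the square root of F. Levels per kilobase used union exon lengths and positions from GENCODE 29.

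The per-line knockdown fits took both hairpins as 1 group, the hairpin fits took the 3 groups of a line, the combined fit had line as a term, and line differences were interaction terms. DESeq2 1.42.0, RLE scaling, no filter, removal of structured and mitochondrial ribosomal RNA, a replicate block, separate hairpin groups and leaving out each library were tried as alternatives. The procedure was tested on simulated data. Replicate numbers were taken to pair samples where every correlation of same-numbered deviations from the group means was above 0.1. That held for all 3 pairs of groups in MV411 (lowest 0.101, highest 0.69) and for hairpin 1 with scramble in MOLM-13 (0.22 to 0.4), and not elsewhere. An unlike-numbered pair in MV411, hairpin 2 replicate 3 with scramble replicate 1, reached 0.415. The pairing is thus an inference from these same data.

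The text names the 5 immunoproteasome genes and PSMB5, PSMB6 and PSMB7, up to 3 members per direction with the smallest p in each comparison, the extremes of each class, up to 3 genes of each context list, and further members called in any fit. The members and lists were chosen with earlier results of these data known. Proteins are not shown.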

Additional observations from a re-analysis of the deposited data

Results flagged for a closer look

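Knockdown effects on 2 members differed between MOLM-13 and SKNO1 by the interaction test. For PSMB8 the difference was -1.08 ± 0.23 (edgeR's quasi-likelihood test, adjusted p = 0.022), with -0.40 in MOLM-13 and 0.66 in SKNO1. For PSMB2 it was -1.0 ± 0.24 (adjusted p = 0.039), with -0.39 in MOLM-13 and 0.58 in SKNO1, and 0.053 as the adjusted p once structured and mitochondrial ribosomal RNA were left out.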

How the results depend on the processing

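Counts are members past the threshold in either direction; no called value changed sign under any alternative run. RLE scaling kept every count within 1.5 times. DESeq2 gave 4 for knockdown in MV411 (2 with edgeR) and 2 in SKNO1 (0), 6 for hairpin 1 in MV411 (3) and 3 in SKNO1 (0), 6 between hairpins in MV411 (3) and 5 in SKNO1 (3), 4 for MOLM-13 minus SKNO1 (2) and 1 for MV411 minus SKNO1 (0). Without the filter, knockdown in MV411 gave 1, hairpin 2 in MV411 11 (7), hairpin 1 in SKNO1 2, and hairpin 2 over hairpin 1 gave 5 in MV411 and 6 in SKNO1. Hairpins fitted as separate groups gave 5 for knockdown in MV411, 1 in SKNO1 and 1 for MV411 minus SKNO1. Without structured and mitochondrial ribosomal RNA, MOLM-13 minus SKNO1 gave 1. The replicate block gave 10 for hairpin 1, 12 for hairpin 2 and 9 between hairpins in MV411, where the numbers were taken to pair the libraries. In groups that share only a number the block gave 3 for hairpin 2 in MOLM-13 (5) and 1 for hairpin 1 in SKNO1. The block was not run between lines at baseline, where a number marks nothing shared. With 1 library left out, knockdown counts ran from 2 (without MOLM-13 scramble replicate 2) to 8 (without hairpin 2 replicate 2) in MOLM-13, 0 (without scramble replicate 1) to 3 in MV411, 0 to 0 in SKNO1 and 6 to 11 combined. Hairpin 1 counts ran from 0 to 3 in MOLM-13, 0 to 6 in MV411 and 0 to 2 in SKNO1. Hairpin 2 counts ran from 0 (without scramble replicate 2) to 6 in MOLM-13, 2 (without hairpin 2 replicate 1) to 12 (without scramble replicate 2) in MV411 and 0 (without scramble replicate 1) to 7 (without hairpin 1 replicate 1) in SKNO1. Hairpin 2 over hairpin 1 ran from 1 to 5 in MV411 and in SKNO1. The interaction counts ran from 0 to 3 for MOLM-13 minus SKNO1 and 0 to 1 for MV411 minus SKNO1. The baseline counts ran from 3 (without MOLM-13 scramble replicate 3) to 9 for MOLM-13 over MV411, 17 to 25 for SKNO1 over MOLM-13 and 19 to 27 for SKNO1 over MV411. Of 93 calls of single members, DESeq2 kept 93, RLE scaling 88, no filter 87, removal of the abundant RNAs 91, and 47 held with every library left out in turn; the causes were not tested. Groups of 3 libraries and, for PSMB9, 45 to 275 counts per library limit the precision.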
